A study of Homo sapiens with 6 samples.

Results

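The 10 keratins of stratified epithelium described here were measured by RNA sequencing in HSC-4, an established cell line from a human squamous cell carcinoma of the mouth. They are the basal keratins *KRT5*, *KRT14* and *KRT15*, the stress-induced keratins *KRT6A*, *KRT6B*, *KRT6C*, *KRT16* and *KRT17*, and the mucosal suprabasal keratins *KRT4* and *KRT13*. They make up 10 of the 58884 genes in the count tables and were found there by gene symbol. The group was chosen by its measured values, since lower counts of these keratins with DAPT had already been seen in the same 6 libraries. Their differences between DAPT and control are therefore given as a description, and no p-value is printed for any single one of them. How many passed the threshold is counted once, beside the share of all genes. The study treated HSC-4 cells with 50 μM DAPT for 24 h to ask what Notch signaling does in these cells. DAPT blocks γ-secretase, which cuts Notch receptors and so sets their intracellular part free. There were 3 DAPT libraries and 3 control libraries, all of cells grown in the same serum-containing medium. The study names DMSO as the vehicle of the controls, but the control count columns carry the letters GM, which are not explained. If GM stands for growth medium alone, an effect of DMSO and one of DAPT cannot be told apart. All libraries came from 1 cell line, and nothing states that the 3 samples of a group were separate cultures, so the p-values given for other genes measure the spread between these samples.

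Keratins form the intermediate filaments of epithelial cells and assemble as obligate pairs of a type I and a type II chain. Basal cells of stratified epithelium make *KRT5* with *KRT14* and *KRT15*, and cells that leave the basal layer of non-cornified oral mucosa switch to *KRT4* with *KRT13*. The *KRT6* genes, *KRT16* and *KRT17* are induced in wounded, inflamed or rapidly growing epithelium and are common in squamous carcinomas, where the balance of these groups is read as a sign of how the tumor differentiates.

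Total counts were between 12276313 and 16317672 per library, and 97.3% to 97.5% of the counts lay on protein-coding genes. The smallest signal taken here, 3 counts, is between 0.184 and 0.244 CPM, the counts scaled to a common library size. Notch target genes were lower with DAPT, with a log2 fold change of -0.77 for *HES1* and -1.98 for *HEY1*. Squamous markers were present in every library, with the exception that *KRT14* was low. Leukocyte, endothelial and Merkel cell markers were each under 1 CPM on average over all libraries, with *VWF* at 1.05 CPM in the controls. Simple epithelium markers were present too, summing to 1140 to 1253 CPM in the controls and 1224 to 1289 CPM with DAPT. Among them *KRT19* was low, at 2.54 CPM in the controls and 1.48 CPM with DAPT. Of 4 melanocyte markers 3 were under 1 CPM on average, and *PMEL* was at 2.49 CPM in the controls and 1.865 CPM with DAPT. Control replicate 1 stood apart. The 7 fibroblast or mesenchymal markers summed to 792 CPM there, against 60.5 and 58.3 CPM in the other controls and 50.8 to 57.1 CPM with DAPT. *VIM*, the intermediate filament gene of mesenchymal cells, was at 239.7 CPM in control replicate 1 and at 0.844 to 2.24 CPM in the other libraries. *COL1A2*, a chain of type I collagen, was at 215 CPM there and at 0.195 to 2.02 CPM elsewhere. DAPT replicate 1 also differed more from its group than the other DAPT libraries did from each other, with a chi-square per degree of freedom over genes of 3.80 and 3.64 against 1.74, where control replicate 1 gave 5.27 and 5.15 against 1.53. Fold changes, sums and ratios of the keratins are given with and without control replicate 1, and the part of these transcripts in them was not tested beyond that. Without DAPT replicate 1 the log2 fold changes of the 8 tested keratins ran from -3.36 for *KRT14* to -0.43 for *KRT15*.

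With DAPT, the summed level of the 10 keratins was about 47.3% below that of the controls. Scaled for composition with edgeR's TMM factors, it was 4737, 4973 and 4899 CPM in the controls and 2612, 2534 and 2551 CPM with DAPT. The groups did not overlap, and the ratio of the means was 0.527, or 0.520 without control replicate 1. Each of the 8 keratins that passed the filter on low counts was lower with DAPT, from 1.37-fold for *KRT15* to 6.92-fold for *KRT14*. *KRT6C* and *KRT4* did not pass the filter. All 8 had an adjusted p-value under 0.05 in the fit over all genes and none was higher, where 18% of the 15001 tested genes were called lower and 17.2% were called higher. In 9 of the 10 keratins every DAPT library was below every control library, and this held for 22.7% of the tested genes. Nothing is read from these counts, because the keratins were chosen for their values in this comparison, and because *KRT14* and *KRT6B* passed the filter through the control group. These are levels in whole cultures, in which fewer cells with a keratin and less of its RNA per cell cannot be told apart.

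**Figure D1:**
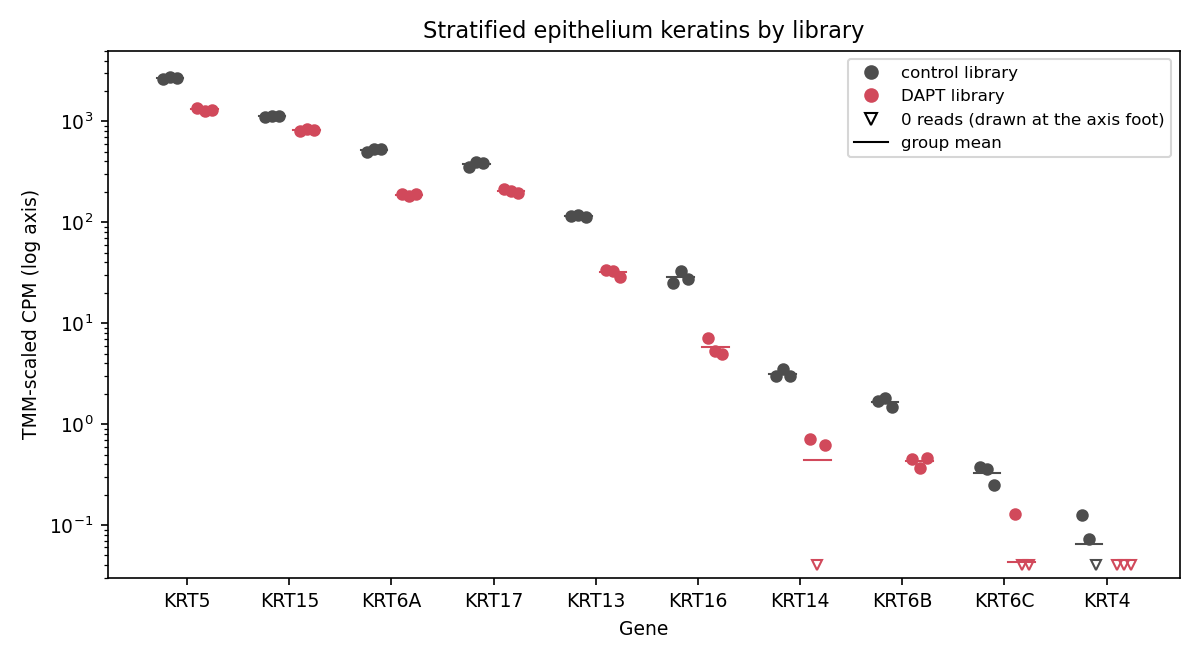
Level of each keratin in each library (TMM-scaled CPM, logarithmic axis), with control libraries in grey and DAPT libraries in red. Horizontal lines are group means (n = 3), and open triangles at the foot of the axis are libraries with 0 reads. For *KRT5*, the controls are at 2635 to 2757 CPM and the DAPT libraries at 1276 to 1362 CPM.

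Among the basal keratins, *KRT5* (ENSG00000186081, chr12:52514575-52520530 of GRCh38, minus strand), the type II keratin of basal cells, was the most abundant of the 10. It had 42306, 38182 and 32718 reads in the control libraries and 20961, 17445 and 17027 reads with DAPT. In CPM this was 2701 ± 61.9 in the controls and 1315 ± 43.4 with DAPT (SD, n = 3 each). The groups were far apart, with the 3 DAPT libraries close together at about 48.7% of the control level. The log2 fold change was -1.04 (standard error 0.05), and -1.05 without control replicate 1.

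*KRT15* (ENSG00000171346, chr17:41513745-41522529, minus strand), a type I keratin of basal cells, took the largest share of the type I reads. Its counts were 17746, 15604 and 13583 in the controls and 12359, 11392 and 10698 with DAPT. This was 1119 ± 12.1 CPM against 819 ± 15.3 CPM (SD, n = 3 each). All DAPT libraries were below all controls, but the difference was the smallest of the 8 tested keratins. On the log2 scale it was -0.45 (standard error 0.05), and -0.46 without control replicate 1. The *KRT15* exons overlap those of *MIR6510* by 2 bases only. Because *KRT15* was less reduced than *KRT5*, its share of the reads of the 10 keratins was 22.98% ± 0.335 in the controls and 31.94% ± 1.10 with DAPT (SD, n = 3 each). The share of *KRT5* was 55.5% ± 0.153 in the controls and 51.3% ± 0.894 with DAPT.

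*KRT14* (ENSG00000186847, chr17:41582279-41586895, minus strand), the usual type I partner of *KRT5*, had few reads in these cells. It had 48, 49 and 36 reads in the controls and 11, 0 and 8 reads with DAPT. The 95% Poisson interval (exact) of the lowest control count was 25.2 to 49.8 reads, and that of the highest DAPT count was 5.49 to 19.7 reads. For the DAPT library with 0 reads the interval was 0 to 3.69 reads. Intervals thus lay apart within the DAPT group too, and nothing about the groups is read from them. Means were 3.17 ± 0.319 CPM and 0.443 ± 0.387 CPM (SD, n = 3 each). At -2.79 (standard error 0.41), the log2 fold change of *KRT14* was the largest of the 8 tested keratins and the least precise. It was -2.83 without control replicate 1, -2.23 without the DAPT library that had 0 reads, and -3.61 by limma-voom.

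Part of the reads of *KRT14* could not have been assigned, because reads that map to several places were not counted. Of the 75-base windows along its exons, the length of the reads, 9.15% occur again elsewhere in the genome, mainly in *KRT16* and its pseudogenes. The longest run shared with *KRT16* is 158 bases of the first coding exon. It is shown with 15 bases on either side, 5′ to 3′ on the coding strand, and capitals mark the shared run.
KRT14, chr17:41586353-41586540: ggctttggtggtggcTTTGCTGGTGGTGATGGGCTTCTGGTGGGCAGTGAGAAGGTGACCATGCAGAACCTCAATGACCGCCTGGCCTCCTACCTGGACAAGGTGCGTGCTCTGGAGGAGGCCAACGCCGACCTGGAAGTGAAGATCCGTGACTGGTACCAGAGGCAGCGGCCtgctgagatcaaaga
KRT16, chr17:41612201-41612388: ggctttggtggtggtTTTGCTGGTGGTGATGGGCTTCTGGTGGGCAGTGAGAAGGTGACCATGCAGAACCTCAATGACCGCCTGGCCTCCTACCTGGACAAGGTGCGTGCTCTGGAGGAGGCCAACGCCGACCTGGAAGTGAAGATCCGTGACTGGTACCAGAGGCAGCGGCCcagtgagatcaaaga
The remaining windows of *KRT14* occur once, and the reads counted there were the few given above. Keratin pseudogenes, of which the annotation lists 150, together had 248 to 290 reads in a control library and 252 to 276 with DAPT. The *KRT16* pseudogenes, which all share windows with *KRT14*, were lower in sum, with 50, 28 and 27 reads in the controls and 4, 5 and 4 with DAPT. Of these pseudogenes, *KRT16P5* and *KRT16P4* share the most windows with it and had 0 reads in every library.

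Of the stress-induced keratins, *KRT6A* (ENSG00000205420, chr12:52487176-52493257, minus strand), a type II keratin of wounded and growing epithelium, had the most reads in the controls, and *KRT17* had the most with DAPT. Its counts were 8040, 7401 and 6452 in the controls and 2931, 2502 and 2455 with DAPT. Expressed as CPM, they were 523 ± 19.5 and 187 ± 3.88 (SD, n = 3 each). The DAPT libraries were all near 35.8% of the control level, and the log2 fold change was -1.48 (standard error 0.05; -1.51 without control replicate 1). *KRT6B* (ENSG00000185479, chr12:52446651-52452146, minus strand) and *KRT6C* (ENSG00000170465, chr12:52468516-52473805, minus strand) are near-identical copies that stand next to it. *KRT6B* had 27, 25 and 18 reads in the controls and 7, 5 and 6 reads with DAPT. Although both groups were low, the smallest control count was above the largest DAPT count, and the log2 fold change was -1.94 (standard error 0.34; -1.93 without control replicate 1). *KRT6C* had 6, 5 and 3 reads in the controls and 2, 0 and 0 reads with DAPT. These counts did not overlap, but they were at or near the smallest signal taken here, and no fold change is given.

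The levels of the 3 *KRT6* genes are uncertain, since 26.2% of the exonic windows of *KRT6A*, 31.9% of those of *KRT6B* and 31.7% of those of *KRT6C* occur elsewhere, mostly in each other. *KRT5* shares a short part of its second coding exon with all 3 of them. This run of 100 bases is shown in *KRT5* and *KRT6A* with 15 bases on either side, and capitals again mark the shared bases.
KRT5, chr12:52519007-52519136: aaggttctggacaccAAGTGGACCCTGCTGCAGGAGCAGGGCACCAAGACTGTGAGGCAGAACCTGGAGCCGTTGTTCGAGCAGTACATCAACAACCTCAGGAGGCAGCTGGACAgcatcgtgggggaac
KRT6A, chr12:52491583-52491712: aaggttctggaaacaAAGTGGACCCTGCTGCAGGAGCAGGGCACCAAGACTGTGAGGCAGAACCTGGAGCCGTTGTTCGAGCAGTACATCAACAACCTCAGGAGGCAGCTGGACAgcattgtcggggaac
A read that lay wholly in such a run was not counted for any of these genes. In all, 1.71% of the exonic windows of *KRT5* occur elsewhere, each of them in *KRT6C*, and the run shown holds only part of these.

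*KRT16* (ENSG00000186832, chr17:41609778-41615899, minus strand), a type I partner of the *KRT6* chains, had 406, 452 and 331 reads in the controls and 111, 72 and 65 reads with DAPT. It was at 28.5 ± 3.79 CPM in the controls and at 5.82 ± 1.21 CPM with DAPT (SD, n = 3 each). DAPT replicate 1 was the highest of its group and still far below the lowest control. The log2 fold change was -2.27 (standard error 0.13), and -2.35 without control replicate 1. *KRT17* (ENSG00000128422, chr17:41619441-41624842, minus strand), the type I keratin that accompanies it in wounded epithelium and in carcinomas, was much more abundant and less reduced. *KRT17* had 5615, 5508 and 4641 reads in the controls and 3309, 2786 and 2564 reads with DAPT, or 377 ± 24.8 CPM and 205 ± 9.07 CPM (SD, n = 3 each). The groups did not overlap here either, and the difference on the log2 scale was -0.88 (standard error 0.05; -0.93 without control replicate 1). In the share of reads of the 10 keratins, *KRT6A* was at 10.7% ± 0.169 in the controls and 7.30% ± 0.0882 with DAPT, whereas *KRT17* was at 7.74% ± 0.322 and 7.997% ± 0.255 (SD, n = 3 each), with overlapping groups.

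Of the mucosal suprabasal pair, only *KRT13* was above the smallest signal. *KRT13* (ENSG00000171401, chr17:41500981-41505705, minus strand), the type I chain, had 1870, 1629 and 1370 reads in the controls and 522, 453 and 376 reads with DAPT. This was 115.9 ± 2.15 CPM and 31.97 ± 2.70 CPM (SD, n = 3 each). All DAPT libraries lay between 28.9 and 33.9 CPM, far below the controls at 113.5 to 117.6 CPM. The log2 fold change was -1.85 (standard error 0.06), the same without control replicate 1. An antisense RNA covers 16.3% of the exonic bases of *KRT13*, but it had at most 6 reads in any library under the stranded counting. *KRT4* (ENSG00000170477, chr12:52806549-52814116, minus strand), the type II partner, had 2, 1 and 0 reads in the controls and 0, 0 and 0 reads with DAPT. None of its exonic windows occurs elsewhere, so repeated sequence did not lower this count, and with all libraries under the smallest signal no difference was detectable at this depth.

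The order of the keratins by abundance was compared per length, as CPM per kilobase of exon in the count tables. In the controls it ran from *KRT5* at 653 ± 14.98, *KRT15* at 187.5 ± 2.02, *KRT6A* at 178.8 ± 6.66 and *KRT17* at 120.5 ± 7.93 to *KRT13* at 39.8 ± 0.737 and *KRT16* at 11.5 ± 1.53 (SD, n = 3). *KRT14* followed at 1.41 ± 0.142, then *KRT6B* at 0.721 ± 0.0688, *KRT6C* at 0.112 ± 0.0236 and *KRT4* at 0.0228 ± 0.0217 (SD, n = 3). No neighbours in this order overlapped over the 3 control libraries. With DAPT, *KRT17* at 65.6 ± 2.90 and *KRT6A* at 64.0 ± 1.33 CPM per kilobase exchanged places with overlapping ranges (SD, n = 3). The ranges of *KRT14* and *KRT6B* also overlapped with DAPT, as did those of *KRT6C* and *KRT4*. The exon length in the tables is the union of all transcripts, which is 5969 bases for *KRT15*. Per kilobase of the canonical transcript, 1712 bases for *KRT15*, the same control order held except that *KRT17* at 248.7 ± 16.4 and *KRT6A* at 226.7 ± 8.44 exchanged places, and their ranges overlapped (SD, n = 3) through control replicate 1, where *KRT17* was at 230.5. When only exonic windows found once in the genome were taken as the length, *KRT6A* at 289.5 ± 10.8 stood above *KRT15* at 209.2 ± 2.26 in the controls (SD, n = 3), so the order of this pair depended on how length was counted. On the canonical transcript, windows found once kept *KRT15* at 683 ± 7.36 above *KRT6A* at 317.5 ± 11.8 (SD, n = 3). The change of place of *KRT17* and *KRT6A* with DAPT depended on length too. Per kilobase of canonical transcript *KRT17* stood above *KRT6A* in both groups, at 135.3 and 81.2 with DAPT. By exonic windows found once *KRT6A* stood above *KRT17* in both, at 103.7 and 85.5 with DAPT. By windows of the canonical transcript found once they did exchange places, with *KRT17* at 149.0 and *KRT6A* at 113.7 with DAPT.

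The summed type II level was reduced more than the summed type I level, but the single genes did not follow this order. The type I keratins *KRT14* and *KRT16* had larger fold changes than every tested type II keratin, and *KRT15* and *KRT17* had smaller ones. The log2 fold change of *KRT13*, -1.85, lay between -1.94 for *KRT6B* and -1.48 for *KRT6A*. The sums rest mainly on *KRT5* and *KRT15*. Per kilobase of canonical transcript, the type II keratins of the group summed to 1395, 1465 and 1443 CPM in the controls and to 691, 649 and 666 CPM with DAPT. Summed in the same way, the type I keratins were at 961, 1011 and 995 CPM in the controls and at 635, 643 and 630 CPM with DAPT. The type II sum was thus 53.4% below the controls and the type I sum 35.7% below, and the ratios to the controls without replicate 1 were 0.460 and 0.634. The ratio of type I to type II was 0.689, 0.690 and 0.690 in the controls, which hardly varied, and 0.919, 0.991 and 0.946 with DAPT. With all protein-coding keratins included, the ratio was 0.759 ± 0.00106 in the controls and 0.932 ± 0.0318 with DAPT (SD, n = 3 each). Within the usual pairs, the ratio of *KRT15* to *KRT5* per length was 0.542 ± 0.00710 and 0.815 ± 0.0418, and that of *KRT17* to *KRT6A* was 1.10 ± 0.0349 and 1.67 ± 0.0685 (SD, n = 3 each). The ratio of *KRT16* to *KRT6A* went the other way, from 0.0756 ± 0.00820 to 0.0432 ± 0.00839, as did that of *KRT14* to *KRT5*, from 0.00160 ± 0.000133 to 0.000454 ± 0.000395 (SD, n = 3 each). None of these ratios had overlapping groups, and leaving out control replicate 1 gave control ratios of 0.690 for type I to type II, 0.538 for *KRT15* to *KRT5*, 1.11 for *KRT17* to *KRT6A*, 0.0782 for *KRT16* to *KRT6A* and 0.00163 for *KRT14* to *KRT5*. These ratios restate the comparison that chose the group and are a description.

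**Figure D2:**
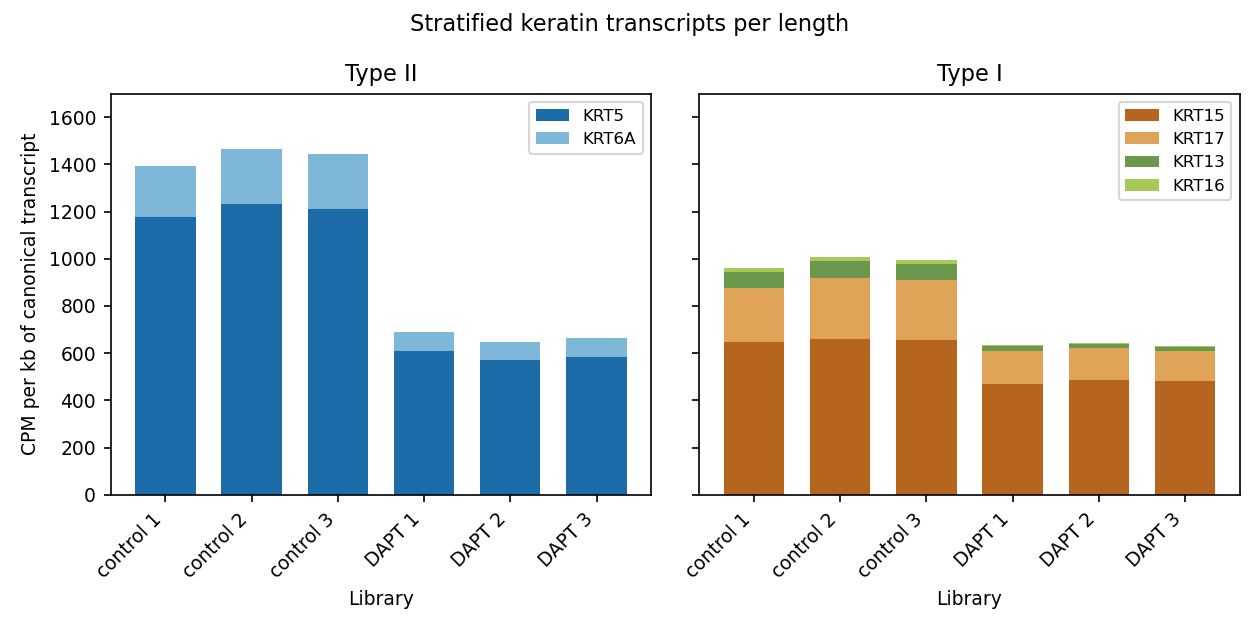
Stacked levels (CPM per kilobase of canonical transcript) of the type II keratins (left) and the type I keratins (right) of the group in each library, for the 6 most abundant. In the controls the type II bars, mostly *KRT5*, stand above the type I bars, mostly *KRT15* and *KRT17*, and with DAPT both are nearly level, with type I to type II ratios of 0.919 to 0.991.

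The other 45 protein-coding keratins gave a mixed picture. In edgeR's quasi-likelihood test, adjusted by Benjamini-Hochberg, 11 of them passed the filter, 3 were lower, 2 were higher and 6 were not called. Their median log2 fold change was 0.08, beside 0.01 over all tested genes. The numbers called lower and higher were the same without control replicate 1. The lower ones were *KRT76* (log2 fold change -1.28, standard error 0.26, edgeR adjusted p = 0.000491), a type II keratin of suprabasal oral mucosa, *KRT19* (-0.77, standard error 0.24, adjusted p = 0.0146) and, by far less, *KRT18* (-0.14, standard error 0.05, adjusted p = 0.0328). *KRT80*, a type II keratin of differentiating epithelia, rose by 0.64 on the log2 scale (standard error 0.05, edgeR adjusted p = 2.26e-09), from 168.1 ± 8.65 to 261.7 ± 4.44 CPM (SD, n = 3 each). *KRT10*, the type I keratin of suprabasal epidermis, rose by 0.31 (standard error 0.07, edgeR adjusted p = 0.000938). *KRT8*, the type II keratin of simple epithelium, was at 450 ± 27.3 CPM in the controls and 475 ± 19.4 CPM with DAPT (SD, n = 3 each), with an edgeR adjusted p of 0.258. *KRT7*, another simple epithelial keratin, had a log2 fold change of 0.39 (edgeR adjusted p = 0.0523). All other keratins together summed to 1124 ± 61.4 CPM in the controls and 1213 ± 23.5 CPM with DAPT (SD, n = 3 each), with DAPT above the controls in every library and a control mean of 1158 CPM without replicate 1, while the 10 keratins of stratified epithelium went from 4870 ± 120.6 to 2566 ± 41.1 CPM. A difference between these sets was not tested, as one of them was chosen on this comparison.

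**Figure D3:**
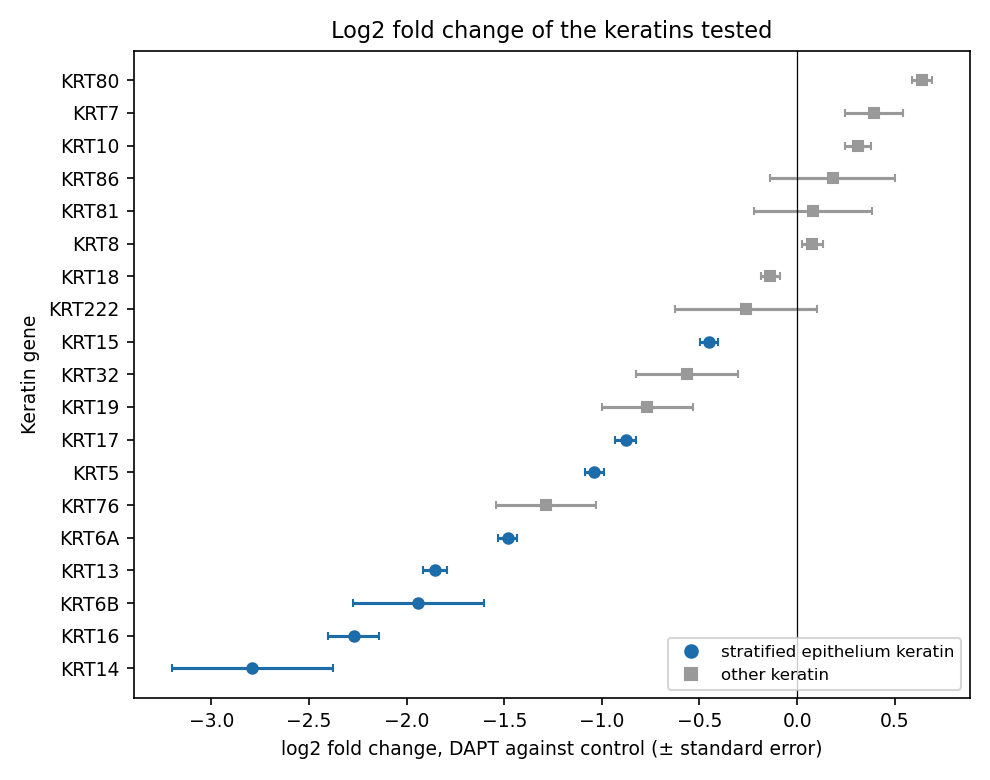
Log2 fold change (DAPT against control) with its standard error for the 19 keratins that passed the filter, sorted by value, with the stratified epithelium keratins in blue and the others in grey. Values run from -2.79 for *KRT14* to 0.64 for *KRT80*, and the 8 blue points all lie left of 0.

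The 10 genes stand in the pair of keratin clusters of the genome. The type II cluster on chromosome 12 spans 783.9 kb from *KRT80* to *KRT18* and holds 27 keratins, of which 10 were tested. All of them are type II genes except *KRT18*, a type I gene at its end. The type I cluster on chromosome 17 spans 970.2 kb from *KRT222* to *KRT17* and holds 28 keratins, of which 9 were tested. *KRT6B*, *KRT6A* and *KRT5* lie within 68.2 kb of each other, counted between gene centres, and all 3 were lower. In the same cluster *KRT80*, 337.0 kb from *KRT5*, was higher, whereas *KRT76* at 255.2 kb and *KRT18* at 433.3 kb were lower. *KRT13*, *KRT15*, *KRT14*, *KRT16* and *KRT17* lie between 81.2 kb on one side of *KRT14* and 37.6 kb on the other, and *KRT19* stands among them, while *KRT10*, 764.2 kb away in that cluster, was higher. Inside the clusters 3 genes that are not keratins were tested, of which *KRTAP4-1*, a hair keratin-associated protein gene of the type I cluster, rose by 0.81 on the log2 scale (edgeR adjusted p = 0.000677) and the others were not called. Further genes that are not keratins were examined outside, the 5 nearest tested ones on either side of each cluster, which were picked by position after the values of the keratins were known. On chromosome 12, 3 of these 10 were lower and 1 was higher, with a median log2 fold change of 0.0017. On chromosome 17, 4 of 10 were lower and 1 was higher, with a median of -0.09. Over all tested genes, 18% were called lower and 17.2% higher. The strongest of these neighbours was *TNS4*, which encodes a tensin of focal adhesions, with a log2 fold change of -1.17 (edgeR adjusted p = 3.59e-12). *JUP*, the plakoglobin gene to which keratin filaments are linked at desmosomes, stands 186.2 kb from *KRT14* and had a log2 fold change of -0.12 (edgeR adjusted p = 0.122).

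**Figure D4:**
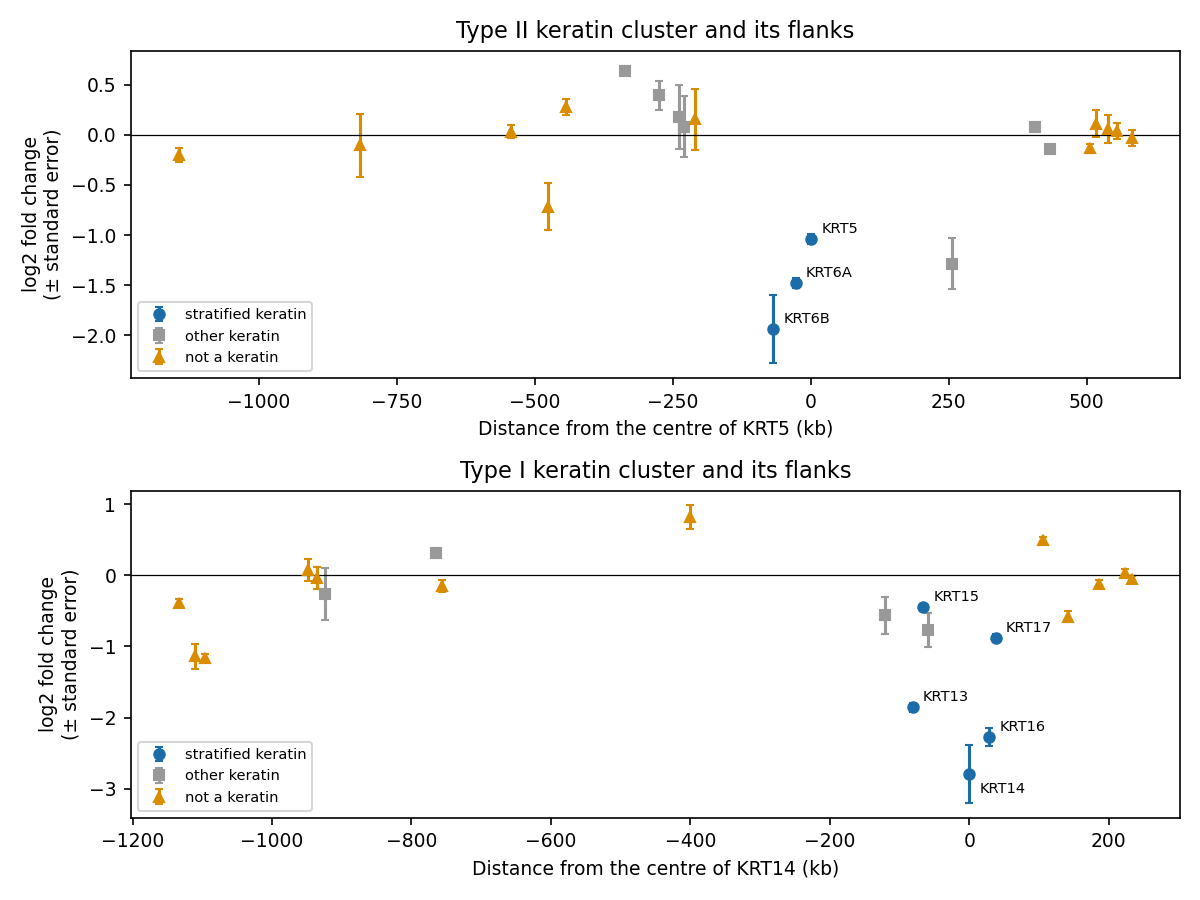
Log2 fold change (DAPT against control, with its standard error) of every tested gene in the type II cluster (top) and the type I cluster (bottom) and of 5 tested genes on either side, against the distance of the gene centre from that of *KRT5* or *KRT14* in kilobases. The stratified epithelium keratins (blue) all lie below 0, other keratins (grey) lie on both sides of 0, and genes that are not keratins (orange) range from -1.17 for *TNS4* to 0.81 for *KRTAP4-1*.

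Promoter sequences from RefSeq (GRCh38.p14) were at hand for *KRT4* and *KRT5*. The *KRT5* sequence is shown because that gene carries most of the reads of the group. It is the 250 bases before the RefSeq start, 5′ to 3′ on the minus strand, at chr12:52520395-52520644. The gene in the count tables starts further upstream, at 52520530, so the 3′ part of this sequence lies inside the gene as counted.
KRT5 upstream: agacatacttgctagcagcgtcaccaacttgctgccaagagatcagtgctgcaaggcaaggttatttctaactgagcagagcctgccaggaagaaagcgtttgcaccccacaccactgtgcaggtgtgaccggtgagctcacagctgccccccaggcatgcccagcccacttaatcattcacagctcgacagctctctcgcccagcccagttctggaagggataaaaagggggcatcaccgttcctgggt
Searched on both strands over 250 bases before and 50 bases after the start, neither promoter held TGANTCA, the letters bound by AP-1 factors, or TGGGAA, the core bound by RBPJ, the DNA-binding partner of Notch. TGANTCA occurs in 7.76% and TGGGAA in 24.3% of the 27305 promoters of this table. The letters TATAAA, in 11.95% of promoters, and GGGCGG, in 44.6%, were also not found in either. This says only that these letters are not in these windows.

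Genes that organise keratin filaments moved in both directions. Of 12 genes of the desmosomal and hemidesmosomal linkers, all tested, 4 were lower and 3 were higher by edgeR's quasi-likelihood test and the Benjamini-Hochberg method, and the median log2 fold change was -0.10. Without control replicate 1, 8 were lower and 3 were higher. *PPL*, the periplakin gene of the cornified envelope, rose by 0.72 (adjusted p = 1.23e-09), *PLEC*, the plectin gene of hemidesmosomes, by 0.40 (adjusted p = 9.1e-05) and *PKP2* by 0.18 (adjusted p = 0.0146). *DSP*, the desmoplakin gene that anchors keratins at desmosomes, was lower by a log2 fold change of -0.29 (edgeR adjusted p = 0.000132). *EPPK1* (-0.41, adjusted p = 0.0285), *PKP1* (-0.32, adjusted p = 7.61e-05) and *DST* (-0.22, adjusted p = 0.0015) were lower as well.

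Among 21 transcription factors of stratified epithelium, all tested, 7 were lower and 4 were higher, or 8 and 3 without control replicate 1. The median log2 fold change was -0.11. *TP63*, the master regulator of basal keratinocytes, was at 378 ± 6.56 CPM in the controls and 252 ± 5.91 CPM with DAPT (SD, n = 3 each), which is -0.58 on the log2 scale (edgeR adjusted p = 2.82e-09). *ZNF750*, a factor of epidermal differentiation, had a log2 fold change of -2.14 (edgeR adjusted p = 3.69e-09), *GRHL3*, a factor of barrier formation, -1.15 (adjusted p = 0.000578) and *SOX9* -0.70 (adjusted p = 3.06e-05). *KLF4*, a factor of suprabasal differentiation, rose by 0.81 (edgeR adjusted p = 2.17e-07), *ELF3* by 0.62 (adjusted p = 2.72e-08), *TFAP2A* by 0.54 (adjusted p = 1.14e-07) and *OVOL1* by 0.26 (adjusted p = 0.02).

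The layer markers that accompany these keratins in tissue were compared as lists. Of 22 suprabasal and cornified envelope genes, 21 were found and only 8 passed the filter, of which 6 were lower and 1 was higher, with a median log2 fold change of -0.51. Without control replicate 1, 5 were lower and 1 was higher. *SPRR1B*, a cross-linked envelope protein gene (-0.79, edgeR adjusted p = 0.00508), *CALML3* (-0.68, adjusted p = 3.69e-06), *CNFN* (-0.64, adjusted p = 0.0301) and *TGM1*, the transglutaminase that links the envelope (-0.63, adjusted p = 0.0129), were lower beside *KRT13*. *SCEL*, the sciellin gene of the envelope, rose by 0.31 (edgeR adjusted p = 0.0247). Of 15 basal layer genes, all tested, 4 were lower and 2 were higher, with a median of 0.06, and 9 were not called. Without control replicate 1 the counts were 5 and 3. *CAV1* (-0.63, edgeR adjusted p = 8.96e-10), *ITGA6*, the integrin of hemidesmosomes (-0.38, adjusted p = 2.75e-06), *PDPN* (-0.37, adjusted p = 0.00108) and *EGFR* (-0.12, adjusted p = 0.0428) were lower, whereas *IGFBP3* (0.21, adjusted p = 0.0087) and the laminin gene *LAMA3* (0.18, adjusted p = 0.00392) were higher.

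Wound and inflammation-induced keratinocyte genes, which are induced together with *KRT6A*, *KRT16* and *KRT17* in injured epithelium, had the lowest median of the lists at -0.57. Of 16 such genes, 15 were found and 13 passed the filter, with 9 lower and 2 higher, or 8 and 2 without control replicate 1. *SERPINB4* (-2.73, edgeR adjusted p = 1.4e-11) and *SERPINB3* (-2.47, adjusted p = 3.31e-15), the genes of the squamous cell carcinoma antigens, are near-identical neighbours whose reads may not be told apart. *PI3*, the elafin gene, went from 10.4 ± 0.586 to 3.20 ± 0.239 CPM (SD, n = 3 each; log2 fold change -1.70, edgeR adjusted p = 4.28e-09), and *IL36G* had a log2 fold change of -1.35 (adjusted p = 0.00745). With DAPT *IL36G* was at 1.36, 0.658 and 0.231 CPM, the last about the smallest signal taken here. *LCN2*, the lipocalin gene, rose by 0.81 (edgeR adjusted p = 1.36e-09) and *IL1A* by 0.23 (adjusted p = 0.019). These lists were written with results of these libraries known, and their counts stand beside 18% lower and 17.2% higher over all tested genes.

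**Figure D5:**
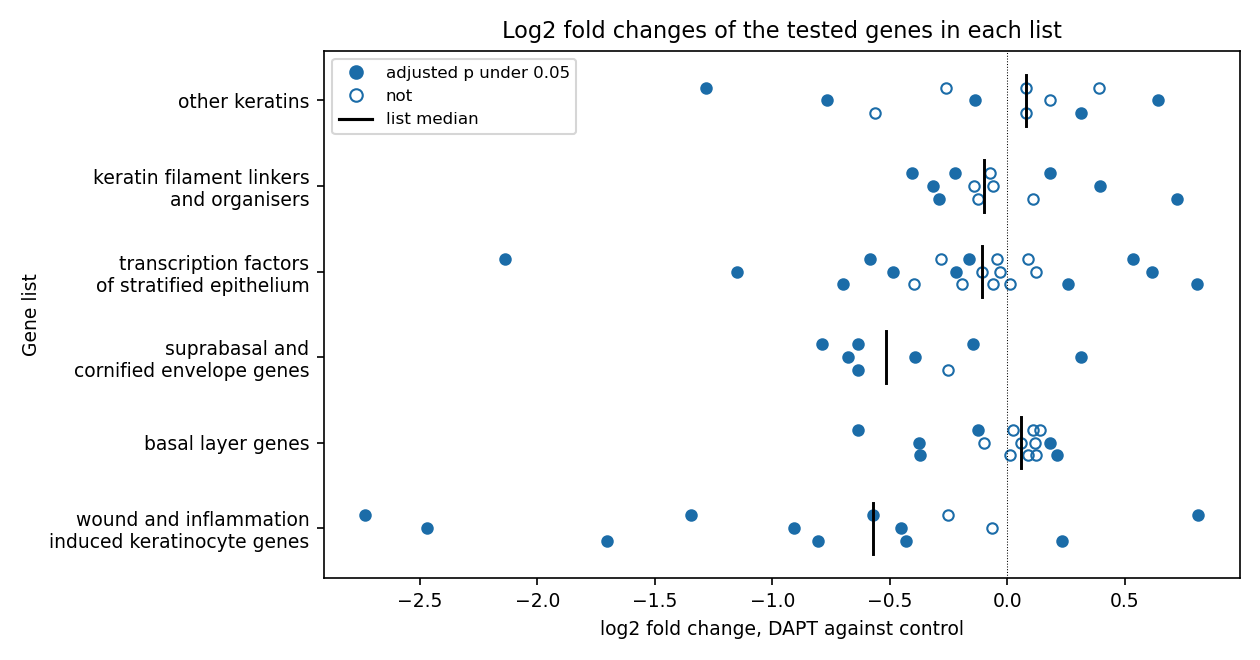
Log2 fold changes (DAPT against control) of the tested genes in the lists of other keratins, filament linkers, transcription factors, suprabasal, basal and wound-induced genes. Filled points have an adjusted p-value under 0.05, open points do not, and vertical bars are list medians, which run from -0.57 for the wound and inflammation list to 0.08 for the other keratins.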

How the data were processed

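RNA of HSC-4 cells was sequenced as 75-base single-end reads in 3 control and 3 DAPT libraries, grouped by the treatment in the labels. The authors trimmed them (Trim Galore) and aligned them to GRCh38 (HISAT2), counted them with featureCounts 1.6.3 over the exons of Ensembl release 96 genes on 1 strand, and deposited raw counts per gene without normalization. Reads mapping to several places or overlapping several genes were not counted, as the options for them are absent from the command. The submitters' processing notes also name HTSeq and DESeq2 without a role. Of 58884 gene identifiers, 58472 were matched to GENCODE release 44 for symbols.

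The deposited counts were tested with edgeR 4.0.16 (R 4.3.3), using its filterByExpr function with the groups (minimum count 10), TMM factors of 0.980 to 1.02, a robust quasi-likelihood fit and Benjamini-Hochberg adjustment over 15001 genes, with calls at an adjusted p-value under 0.05. The paper names edgeR but reports far fewer differentially expressed genes, most of them lower, and its RNA sequencing methods give no threshold. The shares of all genes called here are therefore not the paper's. Standard errors of log2 fold changes come from the test statistic. The procedure was tested on simulated data with known changes. CPM were scaled with TMM factors, and depth limits genes with few reads. The floor and Poisson intervals cover counting error only. The shares of 75-base windows found more than once were computed on the reference genome.

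The keratins and the gene lists were chosen with earlier results of these data known. Named from each list were the tested genes called with a mean of at least 1 CPM, up to the 4 largest changes in each direction, and other keratins of at least 10 CPM, with the neighbours of the clusters picked by position. Alternatives were RLE, upper quartile and library size scaling, no filter, a minimum of 10 counts in each library, a non-robust fit, DESeq2 1.42.0, limma-voom (limma 3.58.1), the replicate number as a block, and each library left out. The length of the canonical transcript was added after seeing the data. Protein sequences and the promoters of the other 8 keratins were not used here.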

Additional observations from a re-analysis of the deposited data

How the results depend on the processing

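In 118 alternative fits of the 8 tested keratins, none changed direction. Nothing is read from this, because the fits use the libraries in which the keratins were chosen. For *KRT14* the log2 fold change ranged from -3.61 by limma-voom to -2.23, and for *KRT6B* from -2.01 to -1.84. A filter of 10 counts in each library removes *KRT14* and *KRT6B*. Scaling by library size alone gave a summed keratin ratio of 0.544, moved the median log2 fold change of all genes to 0.06, and made 61.5% of the calls higher instead of 48.7%. With it, 5 basal layer genes were higher. DESeq2 called 1638 genes higher over all genes, 2 suprabasal genes lower and 0 higher, and 1 wound gene higher. Leaving out 1 library at a time gave 3 to 8 linker genes lower, the highest without control replicate 1. It gave 3 to 5 suprabasal genes lower, with the lowest value without control replicate 3 or DAPT replicate 3, and 0 to 1 higher. Basal layer genes called higher then numbered 1 to 3, and wound genes called higher 1 to 2, each lowest without control replicate 3 or DAPT replicate 2. In the order by level per length, 2 control positions and 4 DAPT positions differed with the length of exon windows found once, and 2 control positions with the canonical transcript, which was chosen after seeing the data.

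No pairing of the libraries by replicate number was seen. Libraries with the same number did not deviate together from the means of their groups, with correlations of 0.0194, 0.0376 and -0.0193 over 14199 genes. Values this low do not show that the samples were unpaired, and the labels do not state it. With the replicate number as a block, 2737 genes were lower and 2558 higher, 5295 in all beside 5281 without the block. In that fit the log2 fold change was -1.04 for *KRT5* and -2.79 for *KRT14*, and 3 other keratins were higher.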
